A study of Nicotiana tabacum with 6 samples.

Results

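The genes described here are the MYB transcription factors of tobacco (Nicotiana tabacum), taken as every gene whose first protein description in the expression tables names it as a MYB factor. They were 86 of the 31766 genes in the tables, under 42 different descriptions. The descriptions of 34 members came from Nicotiana sylvestris, those of 45 from Nicotiana tomentosiformis, the living relatives of both parents of the tobacco genome, and those of 7 from other species. A gene known only under another name is not among the 86, although it may belong to the same family. The orthology annotation marks 138 genes as plant MYB factors (KEGG K09422), and 69 of these are not members.

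RNA was sequenced as 6 pooled libraries, in 3 comparisons of transgenic (T) tobacco of the variety Xanthi with sibling nontransgenic (NT) lines, which segregated from the same single-integration lines. DS10:A9 seeds, with the seed transcription factor Heat Stress Factor A9 of sunflower behind the seed-specific DS10 promoter, were set against NT seeds, and DS10:A4a seeds, with Heat Stress Factor A4a behind that promoter, were set against a different NT seed library. In 35S:A9 seedlings the 35S promoter drove A9 in vegetative organs, and these were set against NT seedlings. All seeds had been imbibed for 1 day in the dark, all seedlings were 3 weeks old, and every pool mixed 4 RNA samples, so that each condition had 1 library and no difference given here has a replicate check. All seeds, NT included, also express the tobacco plant's own A9.

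MYB factors bind DNA through a domain of imperfect repeats, and most plant members carry a pair of these repeats. In plants they are best known for switching phenylpropanoid and flavonoid genes on or off, and for roles in abscisic acid and drought responses, cuticle formation, floral organ development and cell identity. Several repress the same enzymes that others activate. In imbibed seeds the family matters for pigments and flavonols of the seed and for the responses to stress and hormones during germination.

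The values are FPKM, which divide the fragments of a transcript by its length and by the depth of the library. The DS10:A4a tables listed only genes past a log2 ratio of 0.6 on the higher side or -0.5 on the lower side, and the A9up table only genes higher with A9 in both seeds and seedlings. Neither gives the genes that did not pass. Recovered from the steps between low FPKM values, the depths were 16300000 and 16200000 fragments for DS10:A4a and its NT seeds, 11600000 and 11300000 for DS10:A9 and its NT seeds, and 13400000 and 13200000 for 35S:A9 and NT seedlings. A transcript of 1 kb at an FPKM of 1 then rests on 10.6 to 15.2 fragments, and each fold change carries the 95% interval that this counting leaves (counting interval), which covers counting error only and says nothing of the spread between plants or pools. "Higher" and "lower" below refer to listing, while "rose" and "fell" are kept for genes whose counting interval excludes 0. Because these were bulk pools, fewer cells of a type and less RNA per cell cannot be told apart. As a check of the tissues, 78 genes of the photosynthetic apparatus were found. The 19 of them in the A9up table reached 1432 FPKM in 35S:A9 and 671 FPKM in NT seedlings, but at most 52.3 FPKM in DS10:A9 and 22.5 FPKM in its NT seeds. Those in the DS10:A4a tables reached 76.1 FPKM in DS10:A4a and 56.0 FPKM in NT seeds. Of 8 listed seed storage and desiccation genes, 3 were higher and 5 lower in DS10:A4a seeds. They reached only 20.5 FPKM in DS10:A4a and 18.1 FPKM in NT seeds. The 1 seed gene in the A9up table did not mark the seeds. It had 0.18 FPKM in DS10:A9 and 0 FPKM in its NT seeds, but 0.68 FPKM in 35S:A9 and 0.15 FPKM in NT seedlings. The part of either marker list in the MYB values was not tested.

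In DS10:A4a seeds MYB transcripts were listed on both sides. Most of those at readable levels were lower, as were most of all listed genes at such levels, and the limit for lower genes was the less strict. Of the 86 members, 80 were in the DS10:A4a tables, 37 as higher and 43 as lower. These are 46.2% and 53.8% of the 80, beside 46% and 54% of all genes listed. Most were scarce. Only 17 of the 80 (21.2%) reached an FPKM of 1 in a library, against 28.9% of all listed genes, and 35 (43.8%) were listed at 0 in one library, against 30.5%. At most 3 fragments in each library stood behind 24 of the 37 higher members and behind 17 of the 43 lower ones.

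With the counting interval as the guide, 4 members rose in DS10:A4a seeds (5% of those listed, beside 8.9% of all listed genes) and 12 fell (15%, beside 11.7%). Among the 17 members with an FPKM of at least 1, 5 were higher and 12 lower, which makes 29.4% higher where 40.4% of all such genes were. Of those 17, 4 rose (23.5%, beside 23.2% of all listed genes at that level) and 10 fell (58.8%, beside 32%). The summed level of the listed members was 84.1 FPKM in DS10:A4a seeds and 111.2 FPKM in NT seeds. The median log2 fold over the 45 members above 0 in both libraries was -0.66, beside -0.57 over 20595 genes of the same kind. The median and the split over all 80 members lie near those of all genes in the tables. The share that fell among the 17 better expressed members was above that of all genes at that level. However, a gene could reach that level in either library, and some members reached it only where they were high. Examples are gene_10853 (3.61 FPKM in DS10:A4a and 0.49 FPKM in NT seeds) and gene_14792 (0.39 FPKM in DS10:A4a and 1.08 FPKM in NT seeds). The 17 were thus selected in part by their change, and nothing about the family is concluded from this share.

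**Figure D1:**
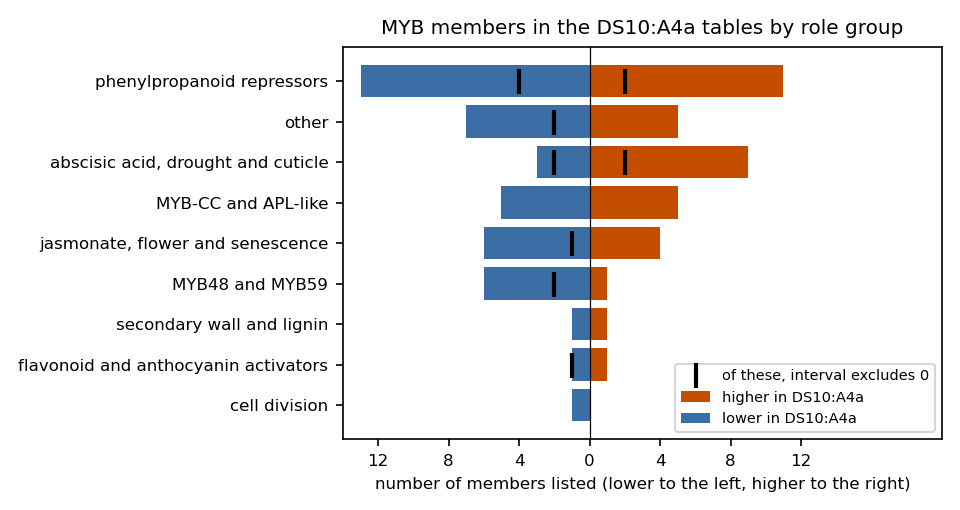
Number of MYB members listed as higher (right) and lower (left) in DS10:A4a seeds against NT seeds, by role group, with a black mark at the number whose 95% counting interval excludes 0. The phenylpropanoid repressors had 11 members higher and 13 lower, the abscisic acid, drought and cuticle group 9 and 3, and the MYB48 and MYB59 group 1 and 6. Of all listed genes 46% were higher and 54% lower.

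A pair of rises was in genes described as myb-related protein MYB306 (written without the prefix in the tables, as are MYB308, MYB315 and MYB330 below), after a snapdragon factor that is a relative of Arabidopsis factors that act in abscisic acid and drought responses and in making cuticular wax. The MYB306-like gene_10853 had 3.61 FPKM in DS10:A4a seeds and 0.49 FPKM in NT seeds, on 74 and 10 fragments. It rose 7.37-fold, a log2 fold of 2.88 with a counting interval of 1.92 to 4.00. The MYB306-like gene_45904 had 4.17 FPKM in DS10:A4a seeds, the highest level of any member listed as higher, and 0.90 FPKM in NT seeds, on 89 and 19 fragments. Its rise was 4.63-fold (log2 2.21, interval 1.49 to 3.02).

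Another pair of genes under the same name went the other way. The MYB306-like gene_22158 had 4.22 FPKM in DS10:A4a seeds and 8.73 FPKM in NT seeds (log2 -1.05, interval -1.38 to -0.72). The MYB306 gene_76158 had 2.91 FPKM in DS10:A4a seeds and 4.97 FPKM in NT seeds (log2 -0.77, interval -1.20 to -0.33). Thus the 4 abundant MYB306 genes that were listed moved in opposite directions. That each cleared 0 follows in part from the listing, since a gene of this name with little change would not be listed. In DS10:A4a seeds the 4 were at 2.91 to 4.22 FPKM, whereas in NT seeds the pair that fell was at 4.97 and 8.73 FPKM and the pair that rose at 0.49 and 0.90 FPKM.

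The other 4 genes of the MYB306 name were higher on 1 to 5 fragments in DS10:A4a seeds, and the interval of each included 0. The rest of the abscisic acid, drought and cuticle group was MYB39-like gene_24684, at 0.15 FPKM in DS10:A4a seeds and listed at 0 in NT seeds, and 3 genes like MYB44, which in Arabidopsis acts in stomatal closure and abscisic acid signalling. The MYB44-like genes were at no more than 0.19 FPKM in DS10:A4a seeds and 0.38 FPKM in NT seeds. Over its 12 members the group had 9 higher and 3 lower, where 46% of all listed genes were higher. In the group 2 rose and 2 fell, beside 8.9% and 11.7% of all listed genes. Apart from the 2 that rose, its higher members rest on 1 to 5 fragments in DS10:A4a seeds. The summed level of the group was 15.9 FPKM in DS10:A4a seeds and 15.6 FPKM in NT seeds. The near equality of the sums covers opposite movements of the single genes.

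The phenylpropanoid repressors were the largest group, with 27 members. They include relatives of snapdragon MYB308 and MYB330, which lower phenolic acid and lignin production when overexpressed in tobacco, and of Arabidopsis MYB4, which represses cinnamate 4-hydroxylase. With A4a 11 of them were listed as higher and 13 lower, beside 46% and 54% of all listed genes, and 3 were not listed there. Of the group 2 rose and 4 fell, beside 8.9% and 11.7% of all listed genes. Their levels summed to 25.3 FPKM in DS10:A4a seeds and 31.7 FPKM in NT seeds.

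The MYB308-like gene_61706 rose. It had 2.74 FPKM in DS10:A4a seeds and 0.45 FPKM in NT seeds on 56 and 9 fragments, a 6.09-fold difference (log2 2.61, interval 1.60 to 3.83). A second gene of that name, gene_65777, fell, with 4.45 FPKM in DS10:A4a seeds and 6.94 FPKM in NT seeds (log2 -0.64, interval -1.04 to -0.22). The rarer MYB308-like gene_52373 also fell, with 0.30 FPKM in DS10:A4a seeds and 0.96 FPKM in NT seeds on 5 and 16 fragments (log2 -1.68, interval -3.49 to -0.17).

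Genes named for MYB330 were split as well. The MYB330-like gene_12521 had 2.55 FPKM in DS10:A4a seeds and 1.56 FPKM in NT seeds, and its interval only just cleared 0 (log2 0.71, interval 0.08 to 1.34). For gene_48297 the levels were 2.23 FPKM in DS10:A4a seeds and 4.29 FPKM in NT seeds, on 19 and 36 fragments (log2 -0.94, interval -1.82 to -0.10). A further pair had similar levels but wide intervals. The MYB330-like gene_48303, a transcript of only 229 bases, had 4.10 FPKM in DS10:A4a seeds and 1.89 FPKM in NT seeds, which came from 11 and 5 fragments (log2 1.12, interval -0.53 to 2.99). At gene_18607 there were 3.11 FPKM in DS10:A4a seeds and 4.71 FPKM in NT seeds, with an interval that just reached 0 (40 and 60 fragments).

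Among the relatives of MYB4 only the Myb4-like gene_86634 was abundant in these tables. It fell to 4.61 FPKM in DS10:A4a seeds, against 8.98 FPKM in NT seeds, on 52 and 100 fragments (log2 -0.96, interval -1.47 to -0.46). The other 5 Myb4-like genes in the DS10:A4a tables were at no more than 0.13 FPKM in DS10:A4a seeds and 0.44 FPKM in NT seeds. None of these 5 could be called. The same held for MYB6-like gene_76861 (0.10 FPKM in DS10:A4a and 0.05 FPKM in NT seeds) and MYB32-like gene_84462 (0.13 FPKM in DS10:A4a and 0.25 FPKM in NT seeds).

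**Figure D2:**
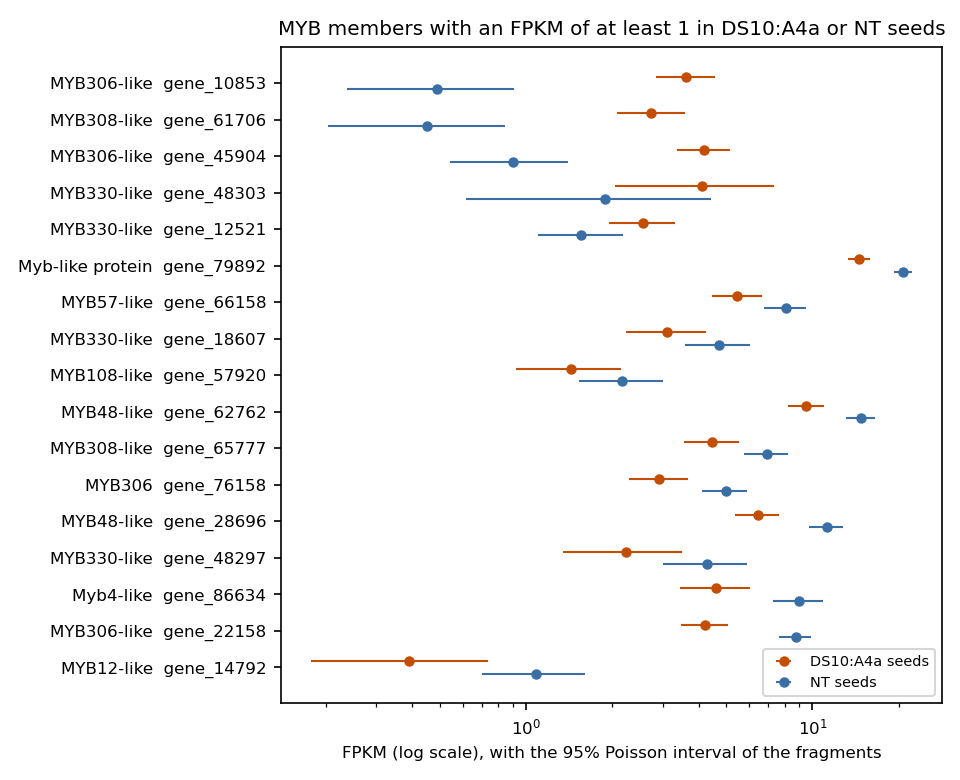
FPKM (log axis) of the 17 MYB members that reached 1 FPKM in DS10:A4a seeds (orange) or NT seeds (blue), with 95% Poisson intervals of the fragments, ordered by log2 fold. The 5 genes at the top are higher in DS10:A4a seeds and the 12 below them lower; the MYB306, MYB308 and MYB330 names each appear on both sides.

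MYB48 and MYB59 are a closely related pair in Arabidopsis, and MYB59 is linked there to root growth and cell cycle progression. Their 7 tobacco relatives were listed as lower in 6 cases and higher in 1 in DS10:A4a seeds, where 54% of all listed genes were lower, and summed to 16.2 FPKM in DS10:A4a seeds and 26.6 FPKM in NT seeds. The MYB48-like gene_62762 had 9.53 FPKM in DS10:A4a seeds and 14.78 FPKM in NT seeds, on 189 and 291 fragments (log2 -0.63, interval -0.90 to -0.36). Its partner in name, gene_28696, had 6.45 FPKM in DS10:A4a seeds and 11.21 FPKM in NT seeds, on 125 and 216 fragments (log2 -0.80, interval -1.13 to -0.48). Both fell by a similar factor, 1.55 and 1.74, and no member of this group rose. The other 5 were at 0 to 0.29 FPKM in these libraries, and each of their intervals included 0.

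The jasmonate, flower and senescence group holds relatives of Arabidopsis MYB21, MYB24 and MYB57, which act under jasmonate in stamen development, and of MYB108, which acts in anther maturation and stress responses. Of its 11 members 4 were higher and 6 lower in DS10:A4a seeds, where 54% of all listed genes were lower. The MYB57-like gene_66158 fell, with 5.44 FPKM in DS10:A4a seeds and 8.05 FPKM in NT seeds, on 100 and 146 fragments (log2 -0.57, interval -0.94 to -0.18). The most abundant MYB108-like member there, gene_57920, had 1.43 FPKM in DS10:A4a seeds and 2.17 FPKM in NT seeds, with an interval from -1.40 to 0.19. The genes like MYB21 (gene_41607 and gene_58274) and MYB24 (gene_73679) were found in 1 or 2 fragments of the DS10:A4a library and in none of the NT library, too few to read a difference.

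The single most abundant member carries no more specific name than Myb-like protein. This gene_79892 had 14.50 FPKM in DS10:A4a seeds and 20.69 FPKM in NT seeds, on 506 and 717 fragments. It fell by 0.51 on the log2 scale (interval from -0.68 to -0.35), the narrowest interval and the smallest fall among the members, close to the -0.5 at which the list begins. Just inside that limit next to it were gene_66158 (-0.57) and gene_18607 (-0.60), and just inside the limit of 0.6 for higher genes were gene_12325 (0.67), gene_12521 (0.71) and gene_28212 (0.81). Members just outside either limit are not in the tables.

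Apart from MYB12, which is described further on, members of the remaining groups were scarce, and 1 of them could be called. The MYB315-like gene_21025 was listed at 0 in DS10:A4a seeds and at 0.17 FPKM in NT seeds, on 0 and 8 fragments, and the upper end of its log2 interval was -0.78. A count of 0 in DS10:A4a seeds allows up to 0.0637 FPKM for this transcript, taken at 3 fragments. Cyclin-D-binding Myb-like factors, whose animal namesake restrains the cell cycle, were listed on both sides. Of these, gene_78908 had 0.51 FPKM in DS10:A4a seeds and 0.21 FPKM in NT seeds (interval -0.14 to 2.97), and gene_50695 had 0.16 FPKM in DS10:A4a seeds and 0.32 FPKM in NT seeds (interval -2.71 to 0.52).

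Relatives of APL, a factor of phloem identity in Arabidopsis, formed with similar genes a group of 10. In DS10:A4a seeds 5 of these were higher and 5 lower, beside 46% and 54% of all listed genes. None of the 10 had an interval clear of 0, and they summed to 2.57 FPKM in DS10:A4a seeds and 2.54 FPKM in NT seeds. The best covered was APL-like gene_12325, with 0.43 FPKM in DS10:A4a seeds and 0.27 FPKM in NT seeds. The MYB86-like genes (secondary wall group) rested on 1 fragment each, and myb-related protein B (gene_82355, cell division group) had 0.22 FPKM in DS10:A4a and 0.36 FPKM in NT seeds. No member carried a GAMYB, trichome or root meristem name.

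**Figure D3:**
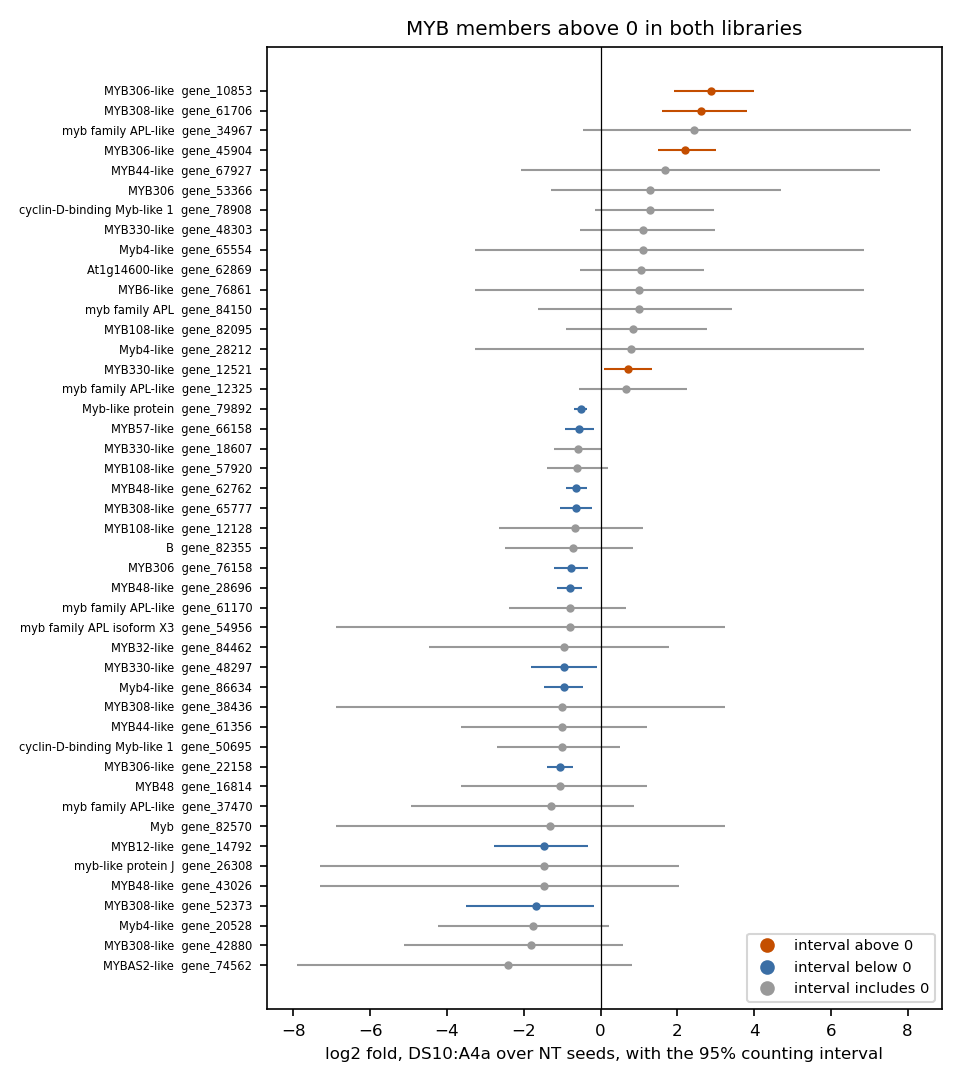
Log2 fold of DS10:A4a over NT seeds for the 45 MYB members with FPKM above 0 in both libraries, with the 95% counting interval of each. Intervals above 0 (orange, 4 members) and below 0 (blue, 11 members) belong mostly to the better covered genes, and the gap around 0 is the range the tables leave out.

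Most names were listed in both directions. Of 13 names that hold at least 2 listed members, 12 had members on both sides. The exception, MYB21, rests on 3 fragments. Many of the splits rest on as little, such as that of the MYB86-like genes with 1 fragment each. The same count over the names of other genes was not made. With 46% of all listed genes higher and 54% lower, a name with several members will often be on both sides. The count is therefore not read as a trait of the MYB names. Genes that rose and genes that fell were found together only under MYB306, MYB308 and MYB330. Tobacco carries closely related copies from both parents, and fragments that match several transcripts were shared out between them by the quantification, so the split between near-identical copies is uncertain.

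Only 7 of the 86 members had values in both seed comparisons, and their direction with A9 was set by the selection of the A9up table. Of these 7, MYB12 alone had counting intervals clear of 0 in both, above 0 with A9 and below 0 with A4a. In Arabidopsis MYB12 activates the early flavonoid genes for chalcone synthase, flavanone 3-hydroxylase and flavonol synthase and so drives flavonol production. Its tobacco relative gene_14792, of 1488 bases, had 3.49 FPKM in DS10:A9 seeds and 1.30 FPKM in the NT seeds of that comparison, on 58 and 21 fragments. It had 0.39 FPKM in DS10:A4a seeds and 1.08 FPKM in the NT seeds of that comparison, on 9 and 25 fragments. The level was thus highest with A9 and lowest with A4a, and the NT seeds lay between.

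For DS10:A9 the log2 fold was 1.42 (interval 0.69 to 2.22), and for DS10:A4a it was -1.47 (interval -2.77 to -0.34). The NT seed libraries, which were normalised separately, had a log2 ratio of -0.27 for this gene (1.08 over 1.30 FPKM), and its interval of -1.16 to 0.65 included 0. In seedlings gene_14792 had 0.57 FPKM with 35S:A9 and 0.37 FPKM in NT, on 11 and 7 fragments, and the interval of -0.86 to 2.24 leaves both directions possible. The other relative of a flavonoid or anthocyanin activator, MYB114-like gene_41464, was found in 1 fragment of DS10:A4a seeds and in none of NT seeds.

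Enzyme genes of the pathway were mostly lower in DS10:A4a seeds. Of 51 genes described as phenylpropanoid or flavonoid enzymes, 47 were in the DS10:A4a tables, 12 as higher and 35 as lower (74.5%, beside 54% of all listed genes). Of the 47, 5 rose (10.6%, beside 8.9%) and 17 fell (36.2%, beside 11.7%). The A9up table, where genes were selected as higher with A9, held 28 of the 51 (54.9%, beside 15%). The flavonol synthase gene_8049 had 7.91 FPKM in DS10:A9 seeds and 4.13 FPKM in its NT seeds, and 1.78 FPKM in DS10:A4a seeds and 5.88 FPKM in its NT seeds. Its log2 folds were 0.94 (interval 0.50 to 1.37) with A9 and -1.72 (interval -2.24 to -1.21) with A4a. An exception was flavanone 3-hydroxylase gene_819, which rose in both, by 1.12 on the log2 scale in DS10:A9 seeds (11.12 FPKM, against 5.13 in NT) and by 0.67 in DS10:A4a seeds (13.25 FPKM, against 8.34 in NT). In 35S:A9 seedlings gene_8049 had 5.16 FPKM, against 0.30 FPKM in NT seedlings (log2 4.10, interval 2.91 to 5.56). A link between MYB12 and the levels of these enzyme genes was not tested.

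The A9up table held 13 of the 86 members (15.1%), the same share as of all genes (15%). That they are higher with A9 follows from how the table was made and is no result. In DS10:A9 seeds 3 of the 13 (23.1%) had an interval above 0, beside 21% of all genes in the table, and in 35S:A9 seedlings 2 (15.4%) did, beside 42.8%. The members were scarce there too, since 6 were listed at 0 in NT seeds and 4 in NT seedlings, and only 2 in seeds and 4 in seedlings reached an FPKM of 1. No member had an interval above 0 in both seeds and seedlings, but so few were called in each that this is no result. The share of all A9up genes above 0 in both was not computed.

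Besides MYB12, the members that rose in DS10:A9 seeds were relatives of MYB108 and MYB4. The MYB108-like gene_30012 had 1.65 FPKM in DS10:A9 seeds and 0.25 FPKM in NT seeds, on 21 and 3 fragments (log2 2.72, interval 1.02 to 5.16). In seedlings it had 0.43 FPKM with 35S:A9 and 0.07 FPKM in NT, on 6 and 1 fragments. The MYB4-like repressor gene_58660 had 0.41 FPKM in DS10:A9 seeds and was listed at 0 in NT seeds, on 7 and 0 fragments, so that its log2 interval began at 0.49. With 35S:A9 it had 0.80 FPKM, against 0.40 FPKM in NT seedlings (interval -0.33 to 2.41). Neither gene was in a DS10:A4a table.

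In seedlings the called members were gene_74562 and gene_83202. MYBAS2-like gene_74562 had 1.98 FPKM in 35S:A9 seedlings and 0.46 FPKM in NT seedlings, on 26 and 6 fragments (log2 2.11, interval 0.79 to 3.67). The MYB315-like gene_83202, a long transcript of 4901 bases, had 0.28 FPKM in 35S:A9 seedlings and 0.02 FPKM in NT seedlings, on 18 and 1 fragments (log2 3.81, interval 1.49 to 9.53). In DS10:A9 seeds these genes were at 0.27 and 0.08 FPKM on 3 and 4 fragments, too few for a call. Whether the A9 effect on any member differs between seeds and seedlings was not tested.

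**Figure D4:**
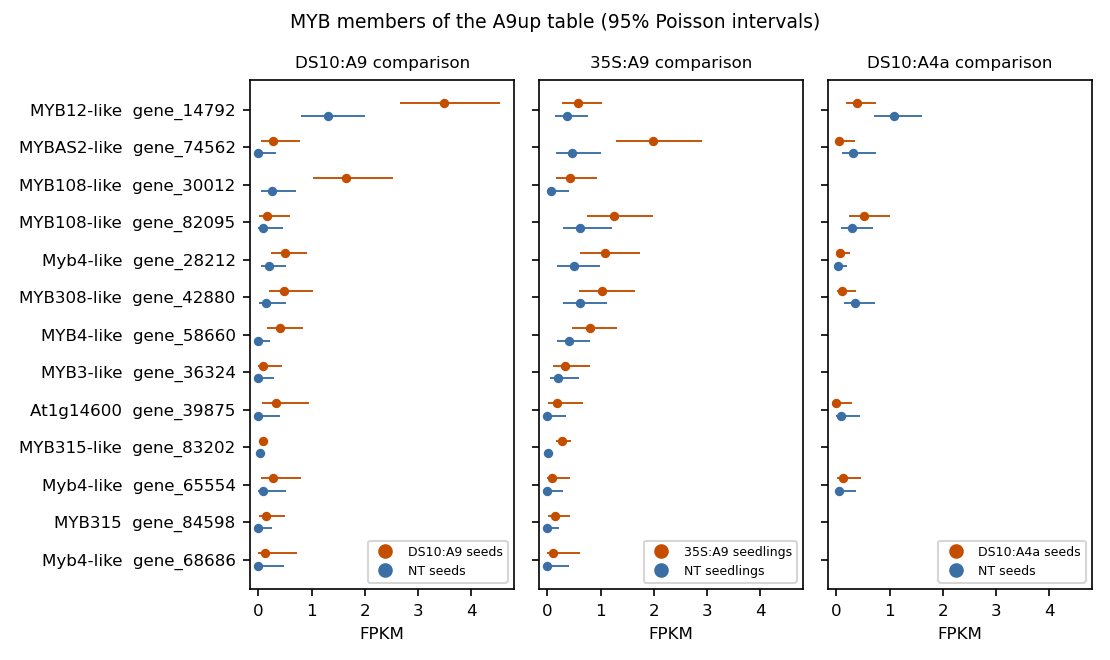
FPKM of the 13 MYB members of the A9up table in seeds with A9 (left), seedlings with A9 (middle) and seeds with A4a (right), T in orange and NT in blue, with 95% Poisson intervals; genes not in a DS10:A4a table have no point in the right panel. MYB12-like gene_14792 stands at 3.49 FPKM in DS10:A9 seeds and 0.39 FPKM in DS10:A4a seeds, with its NT values at 1.30 and 1.08 FPKM.

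Relatives of repressors made up 6 of the 13, and 27 of all 86 members. These are too few genes to read a difference in share, and of the 6 only gene_58660, given above, was called. The Myb4-like gene_28212 had 0.50 FPKM in DS10:A9 seeds and 0.20 FPKM in NT seeds, and 1.08 FPKM in 35S:A9 seedlings and 0.50 FPKM in NT seedlings, with transcript lengths of 1793 bases in the seed and 1157 in the seedling values. The MYB308-like gene_42880 had 0.49 FPKM in DS10:A9 seeds and 0.14 FPKM in NT seeds, and 1.03 FPKM in 35S:A9 seedlings and 0.61 FPKM in NT seedlings. Neither cleared 0 in either comparison. MYB3-like gene_36324 and the Myb4-like genes gene_65554 and gene_68686 were at no more than 0.34 FPKM in any of these libraries.

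Of the 13 members, 7 were also in a DS10:A4a table. Higher there as well were 3 (23.1% of the 13, beside 27.8% of all A9up genes), namely gene_28212, gene_65554 and MYB108-like gene_82095, and lower were 4 (30.8%, beside 27.3%), namely MYB12-like gene_14792, gene_39875, gene_42880 and gene_74562. MYB12 alone among these 7 had an interval clear of 0 in both seed comparisons. The MYB108-like gene_82095 had 0.16 FPKM in DS10:A9 and 0.08 FPKM in its NT seeds, 0.52 FPKM in DS10:A4a and 0.29 FPKM in its NT seeds, and 1.26 FPKM in 35S:A9 and 0.61 FPKM in NT seedlings. For none of the 7 did the NT seed libraries differ from each other beyond counting error. Apart from gene_14792, however, these genes rest on 7 or fewer fragments in each NT seed library. A difference between those libraries could hardly have been seen in them.

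Relatives of MYB factors known under other names were searched by description, and 28 genes were found. In DS10:A4a seeds 12 were higher and 15 lower (44.4% and 55.6%, beside 46% and 54% of all listed genes), of which 3 rose (11.1%, beside 8.9%) and 1 fell (3.7%, beside 11.7%). One of the 28, a WASH complex subunit, is no MYB protein. The DIVARICATA-like gene_32260, from a MYB family that sets petal asymmetry in snapdragon, had 29.19 FPKM in DS10:A4a seeds and 11.56 FPKM in NT seeds (log2 1.34, interval 1.15 to 1.53). Its level in DS10:A4a seeds was above that of every member in either library. A second, gene_39159, had 3.75 FPKM in DS10:A4a seeds and 2.09 FPKM in NT seeds (log2 0.84, interval 0.40 to 1.30), and REVEILLE 1-like gene_65452, a relative of clock factors, fell to 0.90 FPKM in DS10:A4a seeds, against 1.34 FPKM in NT seeds. The relative of Asymmetric leaves 1, a leaf patterning factor, gene_42899, rose in both A9 comparisons, a direction set by the selection of the A9up table. It had 1.35 FPKM in DS10:A9 and 0.50 FPKM in NT seeds, and 5.81 FPKM in 35S:A9 and 2.88 FPKM in NT seedlings. In DS10:A4a seeds gene_42899 was lower, with 0.81 FPKM against 1.26 FPKM in NT seeds (log2 -0.64, interval -1.29 to 0.05).

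A search for partners of MYB factors gave 20 genes, most of which are stress-associated zinc finger proteins with an AN1 domain or TRANSPARENT TESTA 12 transporters and not partners. Only 2 of them were bHLH factors of the kind that bind MYB proteins. EGL1-like gene_47388 and GLABRA 3-like gene_70968 were found in a single fragment each, the first in DS10:A4a seeds and the other in NT seeds.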

How the data were processed

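Total RNA of seeds and seedlings was sequenced as 100-bp paired-end reads on an Illumina sequencer. Per the submitters' processing notes the tools were HISAT (0.1.6), StringTie (1.04), Bowtie2 (2.2.5) and RSEM (1.2.12). The FPKM values were computed by the authors with RSEM on known tobacco transcripts merged with others that were reconstructed from the reads, and 0 was deposited as 0.01. The study sequenced each pool 2 times, and the tables give 1 value. The deposited tables also hold transcript lengths (used here) and the authors' fold changes and p-values for each gene (not used). No column of values per library was left out, and 2 tables that repeat subsets were not used. No genome coordinates or sequences were used here.

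Members and role lists were set by description and chosen with earlier results of these data known. Depth and fragments were recovered from the steps of FPKM of transcripts of 200 to 800 bases. Of the low values, 83.3 to 93.9% were whole multiples of 1 fragment, to within the rounding of the FPKM. RSEM can give parts of fragments, which were rounded. Folds are ratios of FPKM, with exact binomial (Clopper-Pearson) 95% intervals, and levels carry Poisson intervals. With 1 library per condition no p-value was computed. The scripts used Python 3.11.15, NumPy 2.4.6, SciPy 1.17.1 and pandas 2.3.3 and were tested on simulated data. Genes named by rule were, per table, the 8 members with the highest mean FPKM, the 8 with the largest change on log2(FPKM + 1), the 2 most abundant of each role group, and every MYB12; others were chosen after their values were seen. Alternatives were pseudocounts of 0.1 and 1, an FPKM minimum of 1, a lower limit of -0.6, 99% intervals, no length offset, membership by any protein description and the NT seed library of the other comparison.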

Additional observations from a re-analysis of the deposited data

Results flagged for a closer look

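Among the 7 members in both the A9up and DS10:A4a tables, 4 had opposite signs in the seed comparisons. Since selection set the A9 sign, these are simply the A9up members listed as lower with A4a. They are 30.8% of the 13 A9up members, near the 27.3% of all A9up genes. The difference between the comparisons was not tested, because each condition has 1 library. MYB12-like gene_14792 differed from NT seeds by 2.19 FPKM in DS10:A9 seeds and by -0.69 FPKM in DS10:A4a seeds, and it is the only one of the 4 whose counting intervals exclude 0 in both. The others rest on 7 or fewer fragments in every seed library. The MYB308-like gene_42880 differed by 0.35 FPKM in DS10:A9 and -0.25 FPKM in DS10:A4a seeds. MYBAS2-like gene_74562 differed by 0.27 FPKM in DS10:A9 and -0.26 FPKM in DS10:A4a seeds. For gene_39875, named after At1g14600, the differences were 0.33 FPKM in DS10:A9 and -0.08 FPKM in DS10:A4a seeds.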

How the results depend on the processing

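The counts depend most on low levels. With an FPKM of at least 1 required, 5 members in place of 37 were higher and 12 in place of 43 lower in DS10:A4a seeds, 1 in place of 2 had an interval above 0 in 35S:A9 seedlings, while 0 of the 13 A9up members reached it in both the seed and the seedling comparison, and so 0 of the 3 higher and 0 of the 4 lower in DS10:A4a seeds. With a lower limit of -0.6, 40 in place of 43 members were lower. Those that left were gene_79892, gene_66158 and gene_18607, all above an FPKM of 1. Adding a constant to each FPKM cannot turn a sign but shrinks the folds of low genes. Of 43 fold changes of named genes, adding 1 moved 4 outside their counting interval, to 1.63 for gene_10853, 1.44 for gene_45904, 1.37 for gene_61706 and 0.33 for gene_83202 in 35S:A9 seedlings. Against the NT seed library of the other comparison, MYB12-like gene_14792 had log2 folds of 1.69 with DS10:A9 and -1.74 with DS10:A4a. With that library 2 of 8 fold changes turned, gene_28212 to -1.51 in DS10:A4a and gene_82095 to -0.86 in DS10:A9 seeds, and gene_28212 in DS10:A9 seeds went to 3.64, above its counting interval. The folds of gene_42880 shrank to 0.49 in DS10:A9 and -0.49 in DS10:A4a seeds. None of the folds of gene_28212, gene_82095 and gene_42880 had been called. No paired analysis was possible because each condition has 1 library in each comparison, and leaving out a replicate was impossible for the same reason.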
